A study of Canis lupus familiaris with 37 samples.

Results

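Intestinal lymphomas and a T-cell lymphoma of dogs were compared with the canine T-cell lines OSW and CL-1, to find the genes that set primary tumours apart from both lines and those that set them apart from 1 line. The samples were chosen by title: 3 titled intestinal lymphoma, 1 titled T-cell, 4 titled OSW and 2 titled CL-1, which are 10 of the 37 samples of the series. The 4 tumours are treated as 1 group, the grouping the study uses under the name probable T-cell lymphoma. They were tissue samples of different dogs, with whatever other cells the tissue held, whereas the OSW and CL-1 samples were repeats of cells cultured in RPMI medium with FBS. The labels name no drug or other treatment on either side. The spread among samples of a line is therefore that of repeated cultures or preparations of 1 line. The p-values below use 1 spread per gene, estimated over all 37 samples in 8 groups and shared by tumours and lines. In it the repeats of a line count as if they were independent samples. The titles were used because other label fields go against them: by the flow cytometry field, intestinal lymphoma 1 was unclassifiable, intestinal lymphomas 2 and 3 were B-cell lymphoma, the T-cell lymphoma was reference tissue and CL-1 was B-cell derived. The 4 controls are non-neoplastic lymph nodes, and control 4, titled as a control like the others, has a T-cell line as its source name and Lymphknoten (lymph node) in its data name.

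T-cell lymphomas are tumours of T lymphocytes, which recognise peptides that other cells present on MHC molecules. MHC class I molecules are carried by nearly all nucleated cells. MHC class II molecules are made mainly by B cells, macrophages and dendritic cells, and in dogs also by T cells. A solid lymphoma is a mixture of malignant cells with stroma, vessels and other immune cells, whereas a line in culture consists of the malignant cell alone. Genes are given by their Ensembl identifier, because none of the files and tables used here gives a gene name beside an identifier of this annotation. What a gene is known for is given where the study's functional tables list its identifier under a term. The T-cell, B-cell, macrophage and stromal marker genes are known by symbol, so neither the labelled cell type of the lines nor that of the tumours was checked against markers.

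The measurement was the number of RNA-seq reads per gene, given here as CPM, the count scaled to a common total of reads on genes after TMM normalization, which adjusts each library by 1 factor. Levels of different genes are not compared, since CPM takes no account of gene length. Between 2228778 and 3914464 reads per tumour and 2810510 and 3225802 per line sample were counted on genes, and 3 reads, the smallest count taken as visible, corresponded to 0.766 to 1.35 CPM and 0.930 to 1.07 CPM. The 4 tumours differed more from each other than the repeats of a line did, with correlations of log2 CPM across genes of 0.80 to 0.85 among tumours, 0.977 to 0.987 among OSW samples and 0.992 between the CL-1 samples. Reads that HTSeq could not assign to a single gene came to 0.126 to 0.164% in the tumours and 0.392 to 0.506% in the line samples. Control 4 had 0.476%, on the side of the lines, and the other 3 controls had 0.129 to 0.143%. Whatever separated the libraries in this share cannot be told apart from the contrast of tumours with lines. Because control 4 carries another source name than its title, genes that differ between it and the other 3 controls are marked throughout.

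Of 15162 genes tested, 381 were higher and 158 lower in the tumours than in OSW, and 484 were higher and 225 lower than in CL-1, at an adjusted p of at most 1e-05 by edgeR's quasi-likelihood test. These calls are 3.55% of genes against OSW (2.51% higher and 1.04% lower) and 4.68% against CL-1 (3.19% higher and 1.48% lower). A total of 110 genes (0.725%) separated the tumours from both lines, 80 of them higher (0.528%) and 30 lower (0.198%). Another 100 genes (0.66%) separated them from OSW only, with the difference between the lines itself past the threshold, 60 higher (0.396%) and 40 lower (0.264%). This split depended on the setting, with 65 higher and 110 lower by limma voom with group weights, and 39 and 7 or 41 and 5 without CL-1 replicate 1 or 2. For CL-1 only there were 316 genes (2.08%), 226 higher (1.49%) and 90 lower (0.594%). The word only means that the threshold was missed against the other line. At an adjusted p of 0.05, 43 of the 60 and 22 of the 40 genes stayed in the OSW only set. In the CL-1 only set 147 of the 226 and 63 of the 90 did. The rest were then called against the other line as well. Without the test between the lines, 425 genes (2.8%) were called against OSW and not CL-1, and 595 (3.92%) against CL-1 and not OSW. Genes called in opposite directions were few, with 4 (0.0264%) above OSW and below CL-1 and 0 the other way. All these comparisons share the same 4 tumours. The median log2 fold-change of all genes was 0.21 against OSW and 0.34 against CL-1, and changes are to be read against these values. In a fit of only the 10 samples no gene passed the threshold against OSW and 3 genes did against CL-1, and with the difference of the controls subtracted the 110 genes became 9, all higher in the tumours. Leaving out CL-1 replicate 1 or 2 left 28 or 22 genes against both lines, and leaving out an OSW sample left 71 to 73.

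**Figure D1:**
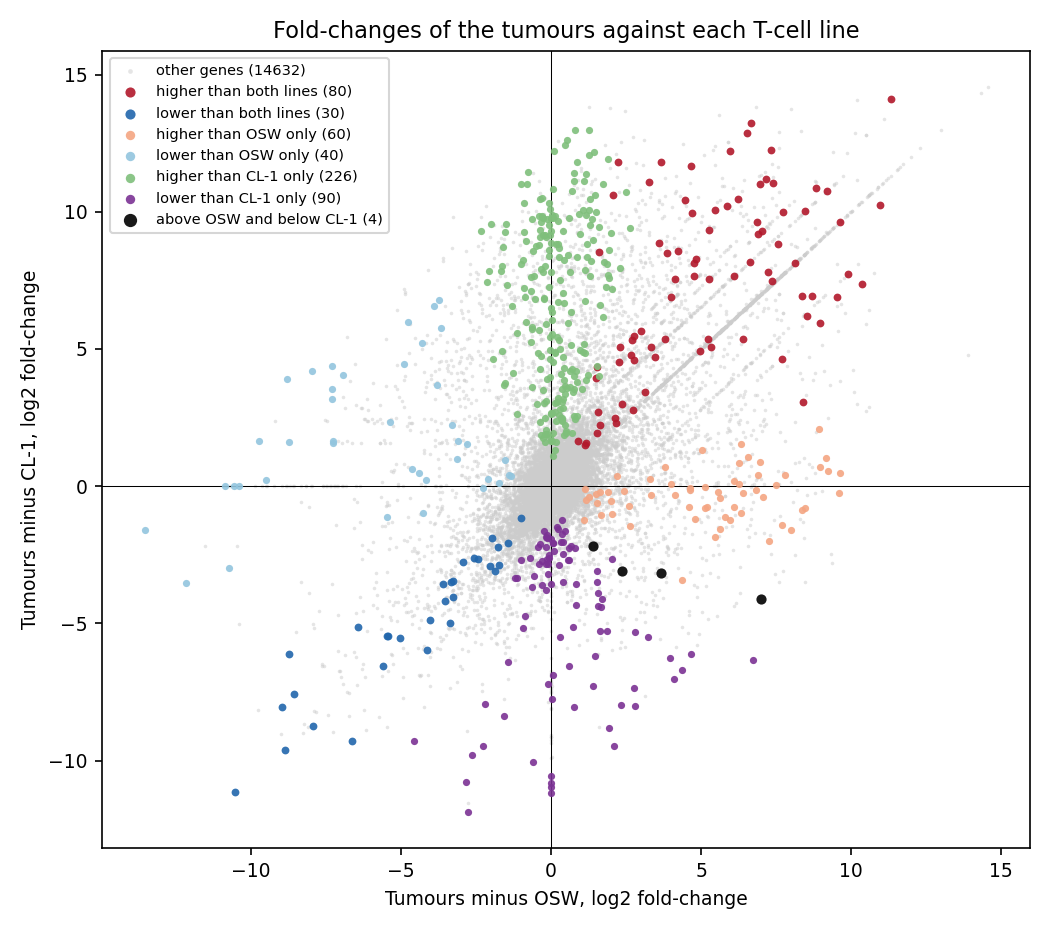
Log2 fold-change of the tumours (n = 4) against OSW (n = 4, horizontal axis) and against CL-1 (n = 2, vertical axis) for the 15162 genes tested, 1 point per gene, coloured by the set it was called in. The 80 genes higher and 30 lower than both lines lie in the upper right and lower left, the 226 and 90 genes of CL-1 only lie along the vertical axis, and the 60 and 40 genes of OSW only along the horizontal axis.

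Among the 80 genes higher in the tumours than in both lines, the median level was below the visible limit in CL-1 and above it in OSW. The levels in the tumours lay nearer to those of the normal lymph nodes. The median over these genes was 57.7 to 73.0 CPM in the tumours, 1.23 to 2.27 CPM in the OSW samples and 0.282 to 0.310 CPM in the CL-1 samples. It was 120.5 to 134 CPM in controls 1 to 3 and 108 CPM in control 4. In all 80 genes every tumour lay above all 6 line samples, and in 78 all 4 controls did so too. The genes were called on these same tumours and line samples, so the separation of the tumours is no further evidence. No read was seen in any line sample for 2 genes, and 24 genes had at most 3 reads in every line sample. In 76 of the 80 genes all 12 B-cell lymphomas also lay above the 6 samples of the T-cell lines. The shares of all genes in which controls or B-cell lymphomas lay above the lines were not counted, so these counts do not set the genes apart. The tumours were spread over more than 4-fold in 42 of these genes. Fewer cells of a type and less RNA per cell cannot be told apart in such bulk samples.

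The identifier with the largest difference, ENSCAFG00000009829, which the study's tables list under haematopoietic cell lineage and under regulation of interferon-gamma and tumour necrosis factor production, had 1279, 424 and 206 CPM in intestinal lymphomas 1 to 3 and 1096 CPM in the T-cell lymphoma. OSW 1 to 4 had 0.309, 0, 0 and 0.65 CPM and both CL-1 samples had 0. The tumours were 3137 times the mean of OSW, with a 95% counting interval of 1074 to 15213 from the 3 reads seen in OSW, and at least 767-fold higher than CL-1, taking 3 reads per CL-1 library as its limit. Controls 1 to 3 had 274, 152 and 215 CPM and control 4 had 109 CPM, so normal nodes and tumours overlapped while the lines stood apart. The next identifier, ENSCAFG00000000426 had 228, 486 and 511 CPM in the intestinal lymphomas and 425 CPM in the T-cell lymphoma against 0 to 0.363 CPM in OSW and 0 to 0.565 CPM in CL-1. It was 2456 times the mean of OSW, with an interval of 680.0 to 20282 from 2 reads. All 4 controls, at 598 to 1092 CPM and 862 CPM, were above the tumours.

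Several genes of this set are on functional lists of the study. ENSCAFG00000013633, listed under MHC protein complex but not under MHC class II, had 3648, 2546 and 3635 CPM in the intestinal lymphomas and 2616 CPM in the T-cell lymphoma. OSW had 442, 790.3, 607 and 563 CPM and CL-1 had 416 and 370.3 CPM. The log2 fold-change was 2.37 ± 0.29 (SE, adjusted p = 1.98e-07) against OSW and 2.98 ± 0.40 (SE, adjusted p = 5.49e-07) against CL-1, and the groups did not overlap. ENSCAFG00000001091, listed under extracellular matrix binding and angiogenesis, had 25.7, 25 and 41.8 CPM in the intestinal lymphomas and 201 CPM in the T-cell lymphoma, with 1 read in all OSW samples together and 0 in CL-1. It was at least 74.9-fold higher than CL-1. Controls 1 to 3 had 69, 91.2 and 64.7 CPM, so 3 of the tumours lay below the nodes and the T-cell lymphoma above them.

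**Figure D2:**
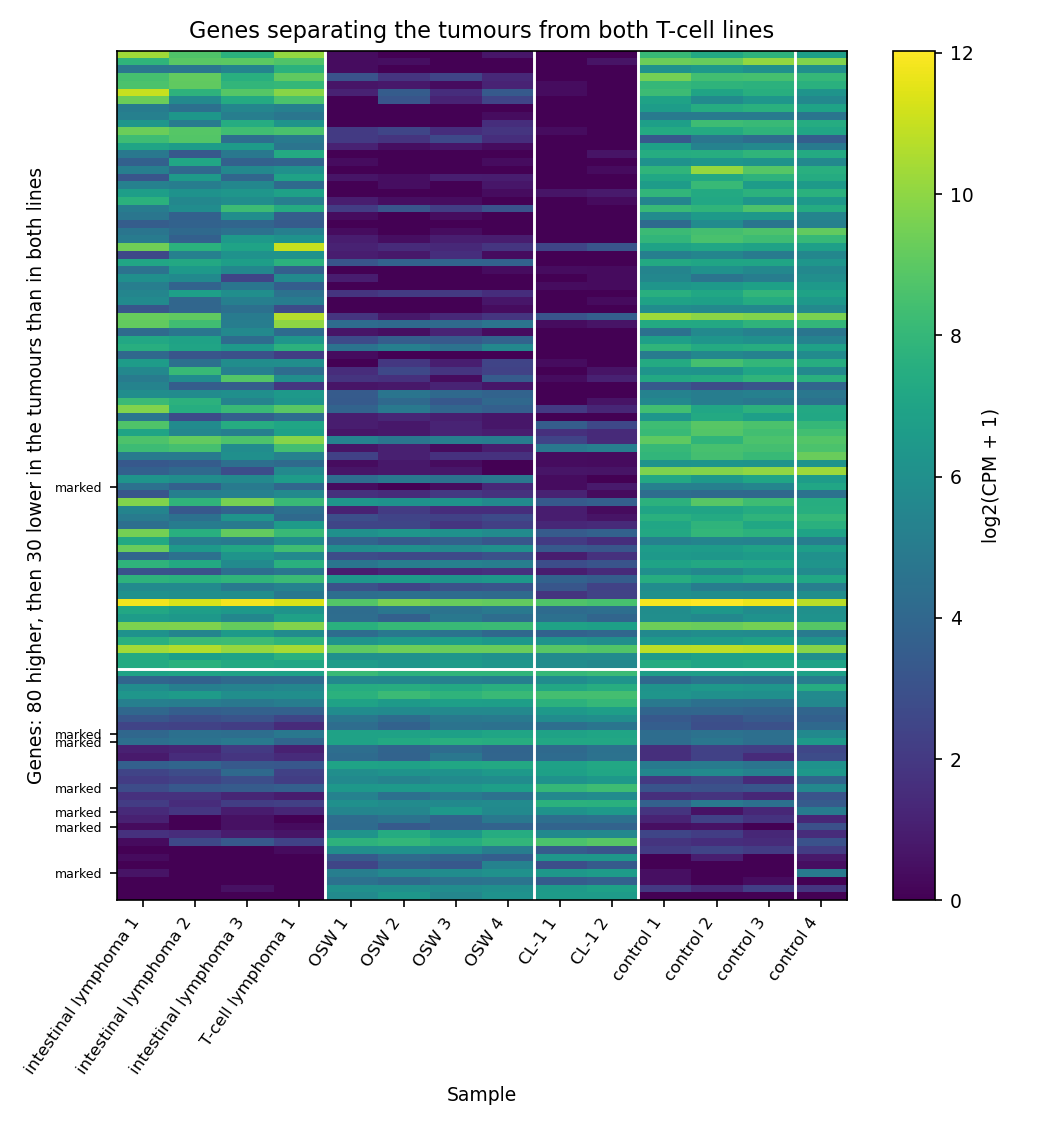
Level as log2(CPM + 1) of the 110 genes (rows) that separated the tumours from both lines, in the 4 tumours, 4 OSW, 2 CL-1 and 4 control samples (columns, white lines between groups). Rows above the horizontal white line are the 80 genes higher in the tumours and rows below it the 30 genes lower, each ordered by the fold-change, with the 7 genes marked by the control contrast labelled at the left. Controls 1 to 3 all lie beyond the lines on the side of the tumours in 79 of the 80 higher and in all 30 lower genes. The share of all genes in which they do so was not counted.

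The 30 genes lower in the tumours than in both lines had medians of 2.62 to 3.56 CPM in the tumours, 53.8 to 55.1 CPM in the OSW samples and 81.8 to 92.1 CPM in the CL-1 samples. In all 30 every tumour lay below all 6 line samples, and in 27 all 4 controls did so as well. For the tumours this is no further evidence, as the genes were called on these samples. The share of all genes in which the controls lay below the lines was not counted. The gene with the largest difference, ENSCAFG00000009014, had 0 reads in all 4 tumours and all 4 controls. OSW 1 to 4 had 53.1, 82.1, 45.1 and 70.2 CPM and CL-1 had 95.9 and 95.2 CPM, so the tumours were at least 58.1-fold lower than OSW and at least 88.7-fold lower than CL-1, against a limit of 3 reads per tumour. ENSCAFG00000014484, listed under negative regulation of epithelial cell proliferation, had 1 read in the 4 tumours together, 63.9, 64.6, 56.6 and 61.7 CPM in OSW and 92.2 and 112 CPM in CL-1. In the controls it had 1.5 to 3.66 CPM and 2.62 CPM, more than in the tumours and less than in the lines. A single gene of the DNA replication list was in this set, ENSCAFG00000017159, with 14.9, 11.1 and 12.4 CPM in the intestinal lymphomas and 12.5 CPM in the T-cell lymphoma. It had 57.1, 53.4, 49 and 49.4 CPM in OSW, 88.4 and 106 CPM in CL-1 and 13.4 to 14.5 CPM in controls 1 to 3, with fold-changes of -2.02 ± 0.22 (SE, adjusted p = 2.17e-08) against OSW and -2.92 ± 0.25 (SE, adjusted p = 1.05e-10) against CL-1 on the log2 scale.

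The control contrast marked 216 of all genes (1.42%) at an adjusted p of at most 0.05, 175 higher in control 4 (1.15%) and 41 lower (0.27%). Among the 80 genes higher in the tumours than in both lines, 1 was marked, and among the 30 lower genes 6 were, which is 20% of them. All 6 were higher in control 4 than in the other nodes, the direction in which the lines differed from the tumours. The marked gene among the 80, ENSCAFG00000008723, moved the other way. It had 21.1, 12.5 and 28.9 CPM in the intestinal lymphomas, 14.9 CPM in the T-cell lymphoma, 0 to 1.62 CPM in the lines and 36.9, 36.9 and 43.9 CPM in controls 1 to 3, but 136 CPM in control 4. Of the 6, ENSCAFG00000032360 had 0 to 0.564 CPM in the tumours and 0 to 0.424 CPM in controls 1 to 3, but 28.8 CPM in control 4 and 33.9 to 101 CPM in the lines. Another, ENSCAFG00000034350, is on the study's list of long non-coding RNAs. It had 0 to 0.445 CPM in the tumours and 0 to 0.499 CPM in controls 1 to 3, against 6.74 CPM in control 4 and 9.44 to 17.3 CPM in the lines. Without testing, control 4 lay on the side of the lines in 56 of the 80 higher genes and in 22 of the 30 lower genes, where over all genes it was the lower in 56.0% and the higher in 42.7%. Leaving control 4 out of the fit moved the count of genes lower than both lines from 30 to 62 and that of higher genes from 80 to 88, and 28 and 78 of the first counts were among them.

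For the genes of 1 line, the marked counts are to be read against 1.42% of all genes. Of the 60 genes higher than OSW only, 1 was marked, and of the 226 higher than CL-1 only 2 were, all lower in control 4. None of the 40 and 90 genes that were lower than 1 line only was marked. Counts this small do not set the genes of 1 line apart from all genes. Over all calls, and beside 1.15% of all genes marked as higher and 0.27% as lower in control 4, 3 of 381 genes higher and 11 of 158 lower than OSW were marked, and 5 of 484 higher and 10 of 225 lower than CL-1. All 11 and all 10 were higher in control 4. The part of this difference between libraries in the tumour and line contrast was not tested.

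**Figure D3:**
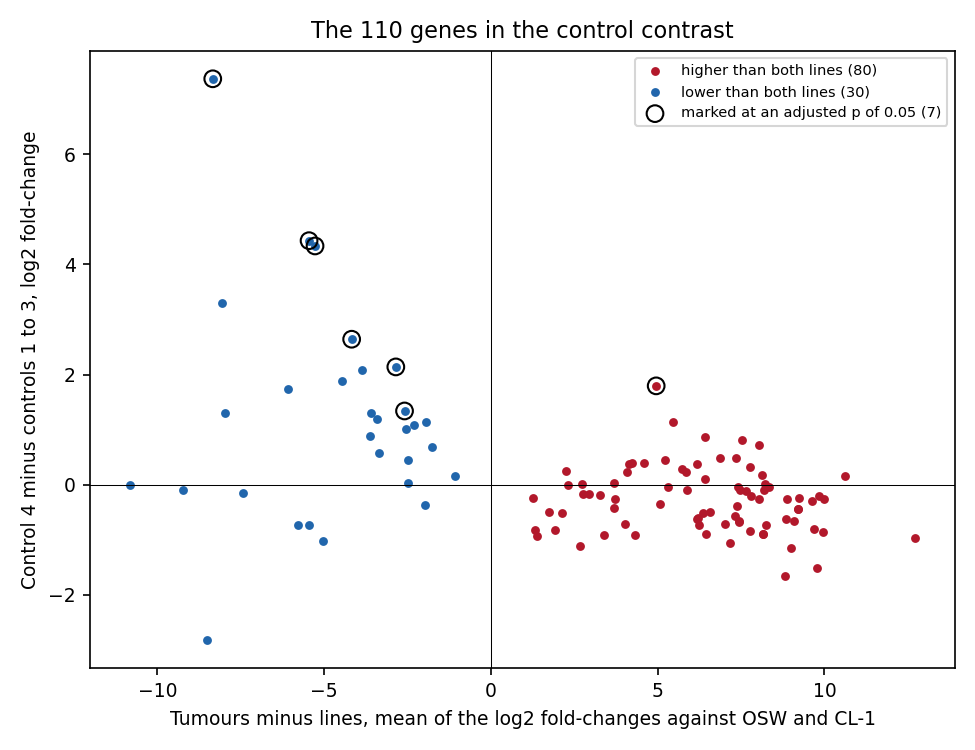
Log2 fold-change of control 4 (n = 1) against controls 1 to 3 (n = 3, vertical axis) for the 110 genes that separated the tumours from both lines, against the mean of their log2 fold-changes versus OSW and CL-1 (horizontal axis), 1 point per gene. The 7 circled genes were marked at an adjusted p of 0.05, and the 6 on the left, lower in the tumours, all lie above 0.

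MHC class II genes had at most 10.2 CPM in any OSW sample, and in 7 of 9 both CL-1 samples lay above all tumours. Of the 9 genes listed under MHC class II protein complex, 7 were higher in the tumours than in OSW (against 2.51% of all genes), 6 of them in the OSW only set (0.396%). Against CL-1, 0 were higher (3.19%) and 1 was lower (1.48%). In all 9 every tumour lay above every OSW sample (15% of all genes), and in 7 every tumour lay below both CL-1 samples (22.5% of all genes). The median log2 fold-change of the 9 genes was 5.79 against OSW and -1.42 against CL-1, beside 0.21 and 0.34 for all genes. The study chose this list from genes that changed in these samples, so it is no independent evidence of direction.

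ENSCAFG00000000812, the member with the highest mean, had 356, 203 and 541 CPM in the intestinal lymphomas and 762 CPM in the T-cell lymphoma. OSW had 2.78, 5.08, 2.63 and 1.62 CPM, and CL-1 had 1919 and 1782 CPM. The log2 fold-change was 7.26 ± 0.64 (SE, adjusted p = 2.94e-10) against OSW, and CL-1 exceeded OSW by 9.25 ± 0.70 (SE). Controls 1 to 3, with 2851, 3024 and 3329 CPM, lay above both the tumours and CL-1. The members ENSCAFG00000000806, ENSCAFG00000000803 and ENSCAFG00000018101 had the same order, from OSW over the tumours and CL-1 to controls 1 to 3. Their levels were 188 to 455 CPM, 220.0 to 575 CPM and 128 to 331 CPM in the tumours, at most 10.2 CPM in OSW, and 1042 to 1147 CPM, 875 to 918 CPM and 441 to 511 CPM in CL-1. Their fold-changes against OSW were 5.63 ± 0.41 (SE, adjusted p = 4.13e-12), 5.79 ± 0.45 (SE, adjusted p = 1.21e-11) and 6.34 ± 0.39 (SE, adjusted p = 5.71e-14) on the log2 scale. Those of ENSCAFG00000000806 and ENSCAFG00000000803 against CL-1 were -1.55 ± 0.39 (SE, adjusted p = 0.00166) and -1.12 ± 0.42 (SE, adjusted p = 0.0279), short of the threshold. Intestinal lymphoma 2 was the lowest tumour in each of these 4 genes, and the order was the same for ENSCAFG00000000814 and ENSCAFG00000032102.

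The remaining 3 members did not share this order. ENSCAFG00000000848 lay between the lines and was called against both, with 36.9, 14.4 and 25.8 CPM in the intestinal lymphomas, 28.6 CPM in the T-cell lymphoma, 1.64 to 2.54 CPM in OSW and 234 to 243 CPM in CL-1. Its log2 fold-change was 3.66 ± 0.44 (SE, adjusted p = 1.38e-07) against OSW and -3.16 ± 0.40 (SE, adjusted p = 2.58e-07) against CL-1. ENSCAFG00000000819, which passed neither test, was low in CL-1 as well, with 9 and 13.3 CPM there, 6.22 to 27.1 CPM in the tumours and 404 to 468 CPM in controls 1 to 3. ENSCAFG00000000896 was at or under 0.65 CPM in both lines and had 3.38, 3.7 and 4.89 CPM in the intestinal lymphomas, but 155 CPM in the T-cell lymphoma and 227 to 262 CPM in controls 1 to 3, and it passed neither test.

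**Figure D4:**
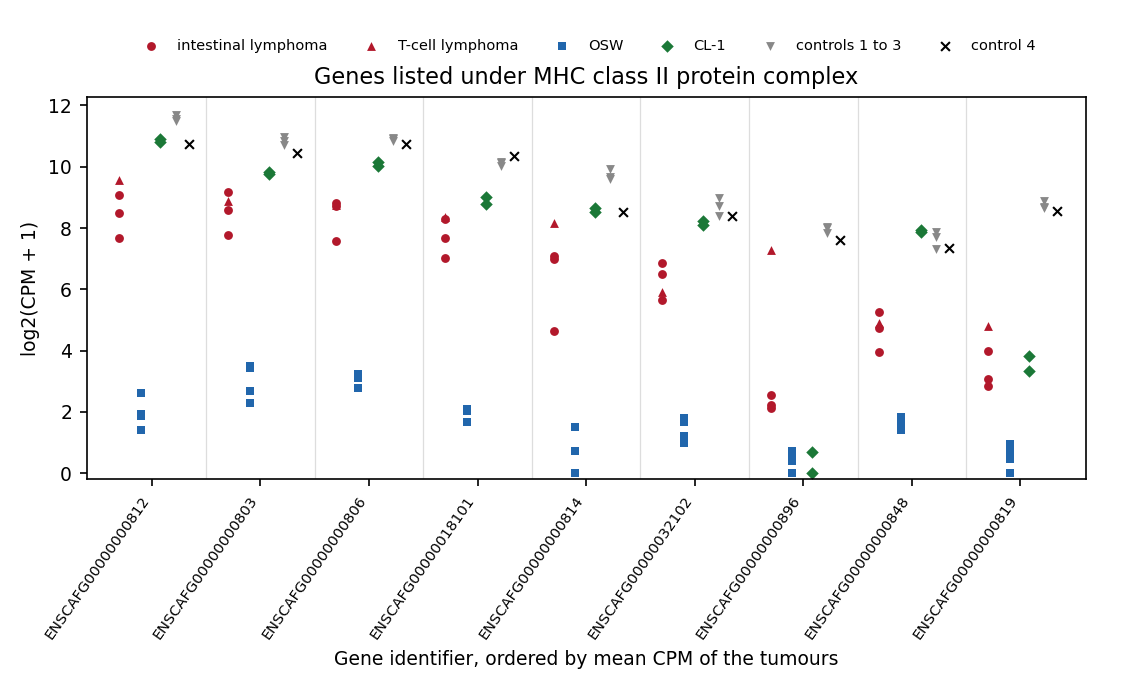
Level as log2(CPM + 1) of the 9 genes listed under MHC class II protein complex, 1 point per sample: 3 intestinal lymphomas (red circles), the T-cell lymphoma (red triangle), 4 OSW (blue), 2 CL-1 (green), controls 1 to 3 (grey) and control 4 (cross). OSW lies below every tumour in all 9 genes, and CL-1 lies above every tumour in 7.

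Related lists repeated this in part, as they share genes with it. The list MHC protein complex holds the 9 genes and 3 more, of which ENSCAFG00000013633 is described above. The others, ENSCAFG00000000500 and ENSCAFG00000032222, had 455 to 946 CPM and 522 to 729 CPM in the tumours, 209.5 to 285 CPM and 337 to 461 CPM in OSW and 176 to 194 CPM and 193 to 225 CPM in CL-1. Neither passed a test, although every tumour lay above every line sample. Of 20 genes listed under antigen processing and presentation of peptide antigen, 9 were higher than OSW (2.51% of all genes) and 2 were higher (3.19%) and 1 lower (1.48%) than CL-1. Of these, 2 were higher than both lines (0.528%) and 4 were in the OSW only set (0.396%). The median log2 fold-change was 4.84 against OSW (4.65 with genes unseen in a group at their bound) and 1.70 against CL-1. Its second gene higher than both lines, ENSCAFG00000012086, had 425, 55.6 and 171 CPM in the intestinal lymphomas and 134 CPM in the T-cell lymphoma against 0.65 to 1.32 CPM in OSW and 5.08 to 10.6 CPM in CL-1.

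Outside these lists the OSW only set had larger differences. ENSCAFG00000019593 had 3297, 3522, 2798 and 4905 CPM in OSW but 0 to 0.564 CPM in the tumours, 0.621 to 1.13 CPM in CL-1 and 1.99 to 2.54 CPM in controls 1 to 3. The mean of OSW was 14398 times that of the tumours, with a counting interval of 4927 to 69818 from 3 tumour reads, so that high expression was seen in OSW alone among these groups. ENSCAFG00000010351 had 155, 173, 169.7 and 283 CPM in OSW, 0 in the tumours and controls, and 0.621 and 0.282 CPM in CL-1, and the tumours were at least 181-fold lower than OSW. In the other direction, ENSCAFG00000001671 had 318, 114 and 209 CPM in the intestinal lymphomas, 7.58 CPM in the T-cell lymphoma, 115 and 114 CPM in CL-1 and 0 to 0.617 CPM in OSW, where 2 reads were seen. ENSCAFG00000003852 had 51, 32 and 44.5 CPM in the intestinal lymphomas, 3.21 CPM in the T-cell lymphoma, 41.3 and 37 CPM in CL-1 and 0 in OSW, at least 32.8-fold lower than the mean of the tumours. In both genes the T-cell lymphoma was the lowest tumour, below CL-1 and the controls.

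The genes of B-cell receptor signalling that passed a test were all higher in the tumours than in the line. The B-cell receptor is the surface antibody of B cells, and several kinases and adaptors of its pathway are also used by the T-cell receptor or by myeloid cells. Of 20 listed genes, 7 were higher in the tumours than in OSW (2.51% of all genes) and 8 higher than in CL-1 (3.19%), and none was lower. Of these, 3 were higher than both lines (0.528%) and 2 were in the CL-1 only set (1.49%). The median log2 fold-change was 2.71 against OSW and 5.05 against CL-1 (4.55 with unseen genes at their bound). Every tumour lay above both CL-1 samples in 14 genes (25.6% of all genes) and above every OSW sample in 11 (15%). The list was drawn up by the study from these samples, so its direction is no independent evidence.

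In the CL-1 only set, ENSCAFG00000007034 had 86, 41.7 and 20.9 CPM in the intestinal lymphomas and 88.3 CPM in the T-cell lymphoma, 78.4, 78.1, 72 and 81.5 CPM in OSW and 0 in both CL-1 samples. The tumours and OSW overlapped, and the tumours were at least 60.4-fold higher than CL-1. ENSCAFG00000019989 had 444, 224 and 53.8 and 54.5 CPM in the same tumours, 140.0 to 174 CPM in OSW and 5.9 and 6.21 CPM in CL-1. Of the genes higher than both lines, ENSCAFG00000014463 had 307, 354 and 56 and 333 CPM, 0.329 to 1.09 CPM in OSW and 27.6 and 34.5 CPM in CL-1, so CL-1 lay between OSW and the tumours. ENSCAFG00000002171 had 29.9, 30.6 and 63.6 and 37.6 CPM in the tumours, at most 4.01 CPM in the lines and 241 to 342 CPM in controls 1 to 3. The third, ENSCAFG00000004980, had 31, 56 and 444 and 60.0 CPM in the tumours and at most 10.1 CPM in the lines.

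The member with the widest range among tumours was ENSCAFG00000008302, also listed under B cell activation. Intestinal lymphoma 1 had 2061 CPM, and the other tumours had 12, 19.6 and 92.7 CPM, beside 324, 631 and 471 CPM in controls 1 to 3. Against OSW, with 0.975 to 3.99 CPM, the log2 fold-change was 7.54 ± 1.13 (SE, adjusted p = 4.7e-06), and without intestinal lymphoma 1 the call was lost, at 3.84 (adjusted p = 3.9e-05). Among the members with the highest means, ENSCAFG00000005873 was higher in the tumours than in CL-1, with 48.2, 199.6 and 96 and 739.7 CPM against 4.97 and 5.93 CPM, a log2 fold-change of 5.62 ± 0.80 (SE, adjusted p = 1.55e-06), and OSW had 130.3 to 167 CPM. ENSCAFG00000015695 had 395, 388 and 320.1 and 231 CPM in the tumours, 121 to 163 CPM in OSW and 2.48 and 1.69 CPM in CL-1, and did not pass the threshold. ENSCAFG00000019938 went the other way, with 478 to 496 CPM in CL-1 and 54.1 to 225 CPM in the tumours, and passed neither test.

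**Figure D5:**
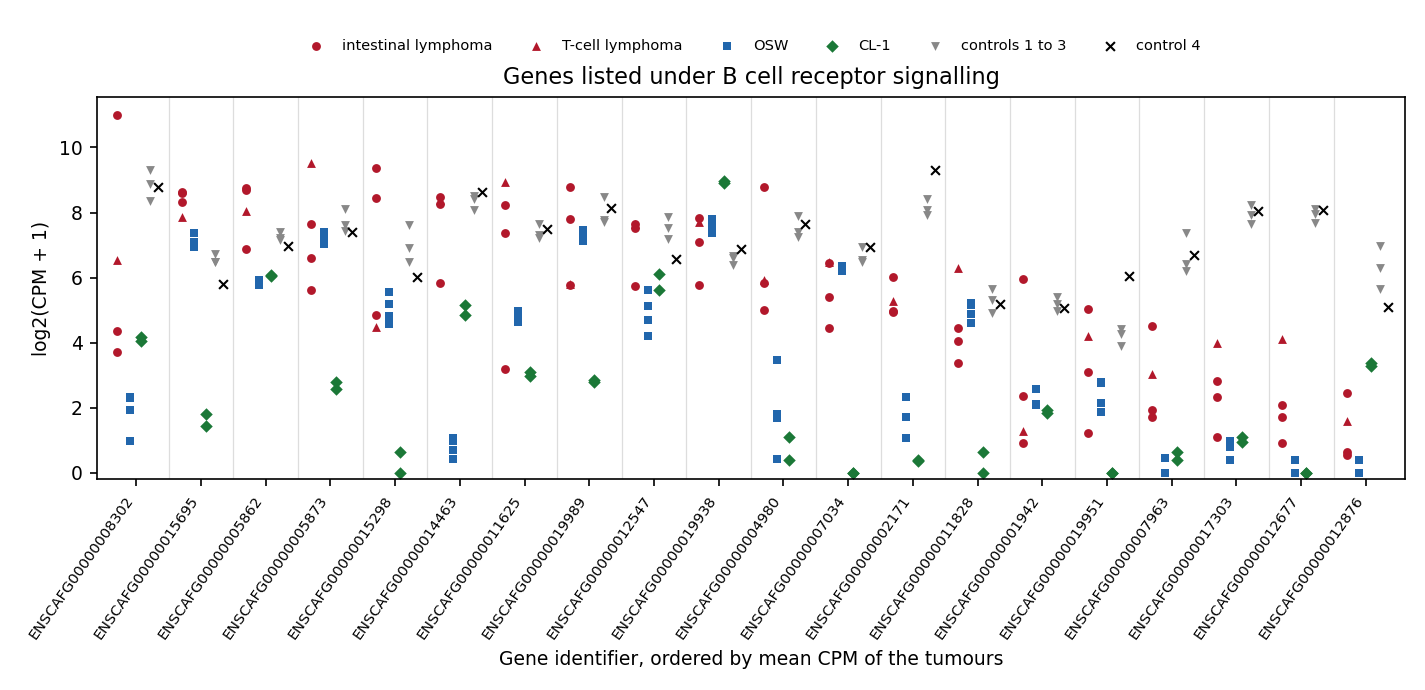
Level as log2(CPM + 1) of the 20 genes listed under B cell receptor signalling, 1 point per sample: 3 intestinal lymphomas (red circles), the T-cell lymphoma (red triangle), 4 OSW (blue), 2 CL-1 (green), controls 1 to 3 (grey) and control 4 (cross). CL-1 lies below every tumour in 14 genes and OSW in 11, and the tumours spread widely within a gene.

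The leading genes of the CL-1 only set had 0 reads either in CL-1 or in the tumours. ENSCAFG00000004576 had 253, 942 and 69.4 CPM in the intestinal lymphomas, 117 CPM in the T-cell lymphoma, 195, 170.3, 213 and 211 CPM in OSW and 0 in CL-1, so the tumours were at least 352-fold higher than CL-1. ENSCAFG00000011039 had 512, 138 and 244 and 471 CPM in these tumours, 181, 126, 134 and 122 CPM in OSW and 0 in CL-1, at least 348-fold higher. All 4 controls expressed both genes, at 80.3 to 205 CPM and 128 to 171 CPM in controls 1 to 3. For lower genes, ENSCAFG00000031459 had 136 and 179.6 CPM in CL-1, 0 in the tumours and at most 0.65 CPM in OSW. ENSCAFG00000006714, listed under ATP binding, had 94 and 102 CPM in CL-1 and 0 in all tumours, OSW samples and controls, at least 90.8-fold lower in the tumours. In 225 of the 226 higher genes all 4 controls lay above both CL-1 samples, and in 86 of the 90 lower genes below them. The share of all genes for which this holds was not counted, so these counts do not set the genes apart. CL-1 had 0 reads in both samples for 51 of the 226 genes.

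Of the 4 genes above OSW and below CL-1, ENSCAFG00000004480 ranked first by the smaller of its absolute fold-changes against the lines. Its call against OSW was lost when any 1 tumour or OSW sample was left out, at log2 fold-changes of 6.55 to 7.18. ENSCAFG00000000848 belongs to MHC class II and is described above. ENSCAFG00000014577, listed under angiogenesis and regulation of leukocyte migration, had 5.64, 10.2 and 5.78 and 5.25 CPM in the tumours, 0.617 to 1.95 CPM in OSW and 49.7 and 64.7 CPM in CL-1, with fold-changes of 2.38 ± 0.34 (SE, adjusted p = 2.28e-06) and -3.10 ± 0.32 (SE, adjusted p = 3.79e-09) on the log2 scale. Without intestinal lymphoma 2 its call against OSW was lost, with a log2 fold-change of 2.13 (adjusted p = 1.64e-05), and without OSW replicate 1 or 2 it was lost at 2.16 (adjusted p = 3.64e-05) and 2.22 (adjusted p = 2.97e-05).

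Few genes of DNA replication and cell division passed a test. Of 19 genes listed under DNA replication, 1 was lower than both lines (0.198% of all genes) and none was higher, and the median log2 fold-change was -0.36 against OSW and -0.77 against CL-1. Every tumour lay below every OSW sample in 6 of the 19 (14.5% of all genes) and below both CL-1 samples in 11 (22.5%). None of its 4 members with the highest means passed a test. ENSCAFG00000006598 had 324 to 796 CPM in the tumours, 434 to 529 CPM in OSW and 394 to 402 CPM in CL-1. ENSCAFG00000014748 had 168 to 330.2 CPM, 332 to 448 CPM and 424 to 456 CPM, so the tumours lay below the lines without passing either test. Of 16 genes listed under DNA replication initiation 1 was lower than CL-1 (1.48% of all genes), ENSCAFG00000007614, with 7.41 to 21.7 CPM in the tumours, 8.77 to 14.5 CPM in OSW and 118 and 98 CPM in CL-1. Among 18 genes of the condensed chromosome kinetochore 1 was higher than CL-1 (3.19% of all genes), ENSCAFG00000013955, with 198, 141 and 164 and 205 CPM in the tumours, 65.4, 195, 109 and 126 CPM in OSW and 24.2 and 18.6 CPM in CL-1. Its call was lost without either CL-1 sample, and without intestinal lymphoma 1 or the T-cell lymphoma at log2 fold-changes of 2.99 (adjusted p = 1.35e-05) and 2.97 (adjusted p = 1.5e-05). SHCBP1 (ENSCAFG00000003704), an adaptor expressed in dividing cells, had 92.8 to 195 CPM in the tumours, 94.1 to 131 CPM in the lines and 13.5 to 28.4 CPM in controls 1 to 3, and the tumours overlapped with both lines. FLT3 (ENSCAFG00000006716), a receptor tyrosine kinase of early blood cells and dendritic cells, had 3.67 to 6.22 CPM in the tumours, 0.309 to 2.54 CPM in the lines and 29.4 to 39 CPM in controls 1 to 3. It passed neither test.

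Adhesion and matrix genes gave few calls and spread widely among the tumours. Of 13 genes listed under extracellular matrix binding, 2 were higher than OSW (2.51% of all genes), 1 higher than CL-1 (3.19%) and 1 higher than both (0.528%), the gene ENSCAFG00000001091 above, with medians of 4.15 against OSW and 5.17 against CL-1 on the log2 scale (4.09 against CL-1 with unseen genes at their bound). The other call, ENSCAFG00000017855, had 118, 23.6 and 24.5 and 10.2 CPM in the tumours and 0 in all 6 line samples, at least 44.1-fold higher than OSW. ENSCAFG00000019189 passed no test, with both CL-1 samples and 3 OSW samples at 0, while the tumours had 161, 0 and 10.2 and 6.7 CPM. Intestinal lymphoma 1 was the highest tumour in it. Among 18 genes of the cell-cell adherens junction 1 was higher than CL-1 (3.19% of all genes), ENSCAFG00000005204, with 322 to 536 CPM in the tumours, 290.1 to 395 CPM in OSW and 136 and 119 CPM in CL-1, a log2 fold-change of 1.71 ± 0.24 (SE, adjusted p = 1.75e-06). In the same list ENSCAFG00000001141 had 85.7, 19.4 and 36.5 CPM in the intestinal lymphomas but 746 CPM in the T-cell lymphoma, beside 775, 848, 722 and 1384 CPM in OSW and 4.34 and 6.78 CPM in CL-1, so the T-cell lymphoma lay in the range of OSW. It passed neither test, and the list's medians were 0.18 and 1.50.

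Among 20 genes listed under negative regulation of viral genome replication, many of them interferon-induced antiviral factors, 1 was higher than OSW (2.51% of all genes) and 2 were higher (3.19%) and 1 lower (1.48%) than CL-1, counts too small to set the list apart from all genes, with medians of 2.22 and 2.83 (1.66 and 2.27 with unseen genes at their bound). ENSCAFG00000013121 had 128, 149 and 110.3 and 122 CPM in the tumours, 8.64, 21.1, 9.87 and 18.8 CPM in OSW and 0.621 and 0 CPM in CL-1, with no overlap. ENSCAFG00000008929 had 65.4, 166 and 53.4 and 108 CPM, 20.1 to 30.9 CPM in OSW and 1.24 and 1.41 CPM in CL-1. ENSCAFG00000017831, lower in the tumours, had 19.6 to 31.5 CPM there, 24 to 44.1 CPM in OSW and 130.0 and 109.6 CPM in CL-1.

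Of the 9 microRNA genes the study lists, 1 was higher than OSW (2.51% of all genes), ENSCAFG00000031206, and none passed the test against CL-1. It had 16.4, 34.7 and 3.56 and 13.4 CPM in the tumours, 0.363 to 0.987 CPM in OSW and 0 to 0.282 CPM in CL-1. Poly-A libraries capture the precursor transcripts of such genes, not the mature microRNAs. Of the 9, 3 were marked, all higher in control 4, beside 1.15% of all genes. ENSCAFG00000032467 had 0 reads in the 4 tumours and in controls 1 to 3, 6.79, 18.5, 12.5 and 13.6 CPM in OSW, 15.8 and 27.7 CPM in CL-1 and 55.4 CPM in control 4, the highest of these samples. ENSCAFG00000030722 had 5.09 to 7.05 CPM in the tumours, 30.6 to 41.6 CPM in the lines, 1.5 to 3.97 CPM in controls 1 to 3 and 15.7 CPM in control 4. ENSCAFG00000020626 had 4.23 to 15.3 CPM, 8.55 to 33.9 CPM and 0 to 1.83 CPM in the same groups and 15.4 CPM in control 4. None of the 3 was called against a line. ENSCAFG00000028483 had 40.3, 209 and 64.5 and 205 CPM in the tumours, 19.2 to 31.2 CPM in OSW and 53.4 and 48 CPM in CL-1, and missed the threshold against OSW.

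Of 97 listed long non-coding RNAs 96 were tested, and 2 were higher (2.51% of all genes) and 1 lower (1.04%) than OSW and 5 higher (3.19%) and 3 lower (1.48%) than CL-1, near the shares of all genes for OSW. Their median log2 fold-changes, 0.13 and 0.24, were near those of all genes. ENSCAFG00000037262 was higher than both lines, with 7.9, 35.2 and 37.3 and 50.1 CPM in the tumours and at most 2.96 CPM in the lines. ENSCAFG00000038359 was lower than CL-1 only, with 56.5 and 71.7 CPM in CL-1, 0 in the tumours and OSW, and at most 0.375 CPM in the controls. Its call missed the threshold with RLE size factors, with DESeq2, with thinned counts and without control 4. Beside 1.15% of all genes, 6 of the 96 were marked, all higher in control 4, and ENSCAFG00000034350 was the only marked member called against a line.

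Which tumour lay closest to the lines varied between the sets. The share of all genes in which each tumour did so was not counted, so these counts do not set a tumour apart. Intestinal lymphomas 2 and 3 had the fewest reads on genes of the 4 tumours, 2240661 and 2228778. Among the 80 genes higher than both lines, the tumour closest to the lines was intestinal lymphoma 2 in 26, intestinal lymphoma 3 in 24, the T-cell lymphoma in 17 and intestinal lymphoma 1 in 13. Among the 226 genes higher than CL-1 only it was intestinal lymphoma 3 in 83, intestinal lymphoma 1 in 57, the T-cell lymphoma in 49 and intestinal lymphoma 2 in 37. In the 30 lower genes it was intestinal lymphoma 1 in 12, intestinal lymphoma 3 in 8, and intestinal lymphoma 2 and the T-cell lymphoma in 5 each. Among the 60 higher than OSW only, intestinal lymphomas 1 to 3 were closest in 17, 16 and 11 and the T-cell lymphoma in 16. For the 40 lower than OSW only these counts were 15, 7, 6 and 12, and for the 90 lower than CL-1 only 31, 17, 18 and 24. Leaving out 1 tumour gave 116 and 107 genes against both lines without intestinal lymphomas 1 and 2, 138 without intestinal lymphoma 3 and 101 without the T-cell lymphoma.

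Of 65 differences called for the genes that were chosen by rule or named here, all kept their direction when each of the 10 samples was left out in turn, and 29 kept their call each time. Without CL-1 replicate 1 or 2, 20 calls against CL-1 were lost that held without any other single sample, at adjusted p of 1.22e-05 to 0.000642, among them those of ENSCAFG00000009829, ENSCAFG00000000426, ENSCAFG00000013633, ENSCAFG00000001091, ENSCAFG00000000848, ENSCAFG00000004576, ENSCAFG00000006714, ENSCAFG00000012086, ENSCAFG00000014463, ENSCAFG00000002171, ENSCAFG00000004980, ENSCAFG00000019989, ENSCAFG00000005873, ENSCAFG00000005204, ENSCAFG00000013121, ENSCAFG00000008929, ENSCAFG00000017831, ENSCAFG00000008723 and ENSCAFG00000037262. A further 15 were lost without at least 1 tumour, those of ENSCAFG00000014484, ENSCAFG00000032360 and ENSCAFG00000034350 against both lines and of ENSCAFG00000007614, ENSCAFG00000008302, ENSCAFG00000013955, ENSCAFG00000014577, ENSCAFG00000031206 and ENSCAFG00000038359 against 1 line among them. In the fits without a tumour in which they were lost, the adjusted p was 1.03e-05 to 5.88e-05. All 15 were also lost without at least 1 line sample. The calls of ENSCAFG00000032360 and ENSCAFG00000032544 against OSW and of ENSCAFG00000038359 against CL-1 were lost whichever of the 10 samples was left out. The call of ENSCAFG00000017855 against OSW was lost without OSW replicate 1, 3 or 4, at adjusted p of 1.04e-05 to 1.15e-05. The calls against OSW of the 6 MHC class II genes of the OSW only set held in all of these fits.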

How the data were processed

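Per the labels and the study's methods, libraries of poly-A RNA gave paired 100-bp reads, which the authors aligned to CanFam3.1 by BWA. Duplicate and poorly mapped reads were then removed (Picard, samtools), and HTSeq 0.6.1 counted reads per Ensembl gene. The deposited values are raw read counts per gene and sample without normalization, and the strand setting is not given in the sources used here, so overlapping and antisense genes cannot be told apart. Rows naming no gene were left out: 68.0 to 76.6% of reads in the line samples and 71.4 to 74.1% in the tumours lay on no gene, and at most 0.506% on more than 1 gene.

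Of 32704 genes 25270 had a count, and 15162 whose highest CPM lay above the 40th percentile were tested. In R 4.3.3, all 37 samples entered 1 edgeR 4.0.16 quasi-likelihood fit of 8 groups after TMM, with Benjamini-Hochberg adjustment over all genes tested and a threshold of 1e-05. Standard errors were obtained as log2 fold-change over the square root of F, without sign. A 9-group fit with control 4 apart gave the marks, at 0.05. A gene was called for 1 line only if it was called against that line and not the other, and the difference between the lines was called too. Groups followed the titles. In the sets of both lines and of 1 line the genes named are those with the largest fold-change among genes with no overlap and at least 10 CPM on the higher side. Marked genes and genes called in opposite directions were ranked by the smaller of the absolute fold-changes against OSW and CL-1, without that filter. From each list the 4 members with the highest mean CPM were examined, and members named beyond these were chosen after their values were seen. Where a group had at most 3 reads the ratio of mean CPM is given, with the exact 95% Poisson interval of its reads, which covers counting error only, and where it had 0 reads a bound at 3 reads per library. The gene lists are identifiers under terms of the study's tables, which the study drew from genes that changed in these samples. The samples and lists were chosen with earlier results of these data known. Lists of symbols, including cell type markers, were not applied, as no table used here gives symbols for these identifiers. Replicate numbers do not pair the samples.

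Alternatives were RLE size factors, library size only, no filter, filterByExpr, DESeq2 1.42.0, limma 3.58.1 with voom and group weights, only the 10 samples, counts thinned to 1962722 per sample, a threshold of 0.05, the replicate number as a block, the control difference subtracted, and each sample left out. Leaving control 4 out, and the threshold of 0.05 with the 10 samples or with the control difference subtracted, were added after seeing the data. In a simulation where 200 genes differed by 3 (log2), the tests run on 15162 genes recovered 61% against OSW, 49.5% against CL-1 and 48.5% against both lines, and called 0 unchanged genes. The 200 were drawn from genes with at least 10 expected reads in the smallest library, so lower genes are not covered. Each simulated gene had the same spread in all groups, unlike the tumours and lines here. The 0 therefore does not cover unequal spread between groups.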

Additional observations from a re-analysis of the deposited data

Results flagged for a closer look

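In 14 of 140 groups of 4 samples examined for the named genes, 1 sample stood apart from the other 3 in CPM by more than the 95% critical value of the Dixon test, where chance flags about 1 group in 20. Some of these genes were chosen after their values were seen, so the count of 14 is not to be set against that rate. Intestinal lymphoma 2 stood apart in ENSCAFG00000000806 at 188 CPM beside 421 to 455 CPM (gap of 0.873 of the range) and ENSCAFG00000014577 at 10.2 CPM beside 5.25 to 5.78 CPM (gap of 0.892 of the range). The T-cell lymphoma stood apart in ENSCAFG00000000896 at 155 CPM beside 3.38 to 4.89 CPM (gap of 0.99 of the range), ENSCAFG00000001091 at 201 CPM beside 25 to 41.8 CPM (gap of 0.905 of the range) and ENSCAFG00000001141 at 746 CPM beside 19.4 to 85.7 CPM (gap of 0.909 of the range). OSW 1 stood apart in ENSCAFG00000004052 at 364 CPM beside 257 to 273 CPM (gap of 0.848 of the range). Intestinal lymphoma 3 stood apart in ENSCAFG00000004980 at 444 CPM beside 31 to 60.0 CPM (gap of 0.93 of the range) and ENSCAFG00000014463 at 56 CPM beside 307 to 354 CPM (gap of 0.843 of the range). Intestinal lymphoma 1 stood apart in ENSCAFG00000007614 at 21.7 CPM beside 7.41 to 9.33 CPM (gap of 0.866 of the range), ENSCAFG00000008302 at 2061 CPM beside 12 to 92.7 CPM (gap of 0.961 of the range), ENSCAFG00000017855 at 118 CPM beside 10.2 to 24.5 CPM (gap of 0.867 of the range) and ENSCAFG00000019189 at 161 CPM beside 0 to 10.2 CPM (gap of 0.936 of the range). OSW 4 stood apart in ENSCAFG00000007614 at 8.77 CPM beside 13.6 to 14.5 CPM (gap of 0.835 of the range) and ENSCAFG00000010351 at 283 CPM beside 155 to 173 CPM (gap of 0.855 of the range). The calls of ENSCAFG00000008302 and ENSCAFG00000014577 against OSW were lost without that tumour, the first also without each OSW sample and the second also without OSW 1 or 2.

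For the following genes the difference of the tumours from OSW and that from CL-1 differed by the test between the lines in edgeR, given as CL-1 minus OSW on the log2 scale, with adjusted p from 7.69e-15 to 9.63e-06. CL-1 was the higher line for ENSCAFG00000006714 (11.17), ENSCAFG00000004480 (11.12), ENSCAFG00000038359 (10.56), ENSCAFG00000003852 (9.85), ENSCAFG00000000812 (9.25), ENSCAFG00000001671 (9.12), ENSCAFG00000000814 (9.10), ENSCAFG00000031459 (9.09), ENSCAFG00000032102 (7.33), ENSCAFG00000018101 (7.31), ENSCAFG00000000806 (7.18), ENSCAFG00000000803 (6.92), ENSCAFG00000000848 (6.82), ENSCAFG00000014577 (5.48), ENSCAFG00000014463 (5.30), ENSCAFG00000007614 (3.09) and ENSCAFG00000017831 (1.78). OSW was the higher line for ENSCAFG00000004576 (-12.18), ENSCAFG00000019593 (-11.94), ENSCAFG00000011039 (-11.69), ENSCAFG00000007034 (-10.83), ENSCAFG00000010351 (-8.64), ENSCAFG00000019989 (-4.69) and ENSCAFG00000000444 (-1.22). Genes of the OSW only and CL-1 only sets appear here by definition, since those sets require this test. Of the 9 genes listed under MHC class II protein complex, 7 are in the first group. As 6 of the 9 are OSW only genes, this count is no further evidence. Genes with a value beyond 8 in either direction had 0 to 36 reads in the lower line, and with 0 reads there the fitted value depends on the prior count.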

How the results depend on the processing

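RLE size factors, library size only, no filter, filterByExpr, thinned counts and a fit without control 4 kept all 5 counts within 1.5 times. Library size only moved the share of higher genes against CL-1 from 68.3 to 57.5% (416 higher and 307 lower), with the median of all genes at 0.15 against OSW and 0.14 against CL-1, a shift of up to 0.19. In the order OSW, CL-1, both lines, OSW only and CL-1 only, the counts of 539, 709, 110, 100 and 316 became 1515, 1802, 506, 255 and 672 with DESeq2 and 6140, 6827, 3338, 1139 and 2098 at an adjusted p of 0.05. With only the 10 samples they were 0, 3, 0, 0 and 0, with fewer samples behind the spread: the smallest adjusted p in edgeR was 1.32e-05 against OSW and 7.8e-06 against CL-1, and 6349 and 6638 genes had an unadjusted p under 0.05. At an adjusted p of 0.05 that fit gave 4219, 4636, 1968, 775 and 1496. With the control difference subtracted, in which control 4 alone stands for its side, the counts were 34, 116, 9, 18 and 94, and at 0.05 they were 1157, 1951, 505, 422 and 1188, including 68 of the 80 genes higher and 10 of the 30 lower than both lines. Voom with group weights, where the tumours had a weight of 0.264 against 1.81 in OSW and 3.66 in CL-1, gave 356, 175 and 740 for OSW, OSW only and CL-1 only, with 1030 and 143 for CL-1 and both lines. Of the 143, 133 were higher and 10 lower, and they shared 46 of the 80 higher and 3 of the 30 lower genes. Leaving out 1 sample gave 252 to 594, 149 to 732, 22 to 138, 46 to 126 and 79 to 347. For these moves the cause was not tested beyond what the settings themselves change.

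Replicate numbers were shared by title only. Deviations of same-numbered samples had a mean correlation of -0.032 (-0.151 to 0.030, 9 pairs) and those of other pairs 0.013 (23 pairs). With the replicate number as a block the counts were 219, 434, 50, 57 and 194.

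The 216 marked genes became 9 at an adjusted p of 1e-05, 1328 where control 4 had only to lie outside the range of the other 3 by 1 on the log2 scale, and 99 to 135 without 1 of controls 1 to 3. Of 1560 differences of named genes over all settings, 1232 passed the threshold of their setting, 328 fell below it and 0 changed direction. That threshold was not 1e-05 throughout. The main fit read at 0.05 kept all 65 calls, which it could not fail to do. Read at 0.05, the fit of only the 10 samples kept 65 calls and the fit with the control difference subtracted kept 50. At 1e-05 the former lost all 65 and the latter kept 18. The 1232 therefore overstates how many calls held at 1e-05.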
